A study of Mus musculus with 24 samples.

Results

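The insulin-like growth factor (IGF) genes of the mouse uterus were followed across deletion of Ctcf and a short progesterone treatment. The set held 10 genes, taken by symbol from the 22943 genes of the deposited table. They were the ligands Igf1 and Igf2, the non-coding RNA H19, the receptor Igf1r, and the binding proteins Igfbp2, Igfbp3, Igfbp4, Igfbp5, Igfbp6 and Igfbp7. All 10 passed the filter on low values, as did 14284 genes in all.

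Uteri came from 21-day-old female C57bl/6 mice. The mutants, PgrCre+;Ctcf-f/f (cKO), carried a floxed Ctcf gene and a Cre recombinase driven by Pgr, the progesterone receptor gene. Controls were Cre-negative Ctcf-f/f littermates (f/f), so every animal carried the floxed allele. Under-skin injections held 0.5 mg of progesterone (P4) in 0.05 ml of sesame oil, or the oil alone (vehicle), and treatment lasted 6 h. The groups were 4 cKO libraries after P4, 4 f/f libraries after P4, 8 cKO libraries after vehicle and 8 f/f libraries after vehicle. The labels name 2 library batches. A mixed batch comprised 16 libraries with 4 from each group, and a vehicle-only batch the remaining 8, again 4 per genotype. Whether libraries stand for separate animals is not stated in the labels, and p-values then measure a spread that may be partly technical. The presence of Cre and the loss of Ctcf cannot be told apart in this design, since no group carried Cre without the floxed allele.

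IGF1 and IGF2 are secreted peptides that signal growth and survival through the IGF1 receptor. IGF-binding proteins hold them in the extracellular space, where they extend the lifetime of the ligands or keep them from the receptor. In the uterus, stromal IGF1 is known as a relay of steroid hormone signals to the epithelium. Igf2 and H19 are imprinted neighbours: Igf2 is transcribed from the paternal chromosome and H19 from the maternal one. CTCF bound upstream of H19 on the maternal chromosome is known to keep Igf2 from enhancers that lie beyond H19.

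Values are batch-corrected RPKM, that is, reads per kilobase and per amount of reads in the library. The correction was read as a shift of each gene by 1 constant per batch, and a change of scale was not tested. Such a constant cancels in RPKM differences within a batch but enters fold changes and comparisons between genes. Fold changes are on the log2(RPKM + 0.5) scale from a limma model over all tested genes, with its standard error (SE). A gene was called at a Benjamini-Hochberg adjusted p below 0.05 over those genes. Estimated depth ranged from 29900000 to 100600000 reads per library. Ctcf averaged 9.95 ± 0.982 RPKM in cKO uteri and 26 ± 1.05 RPKM in f/f uteri after P4 (SD, n = 4 each). After vehicle it averaged 11.5 ± 1.11 RPKM in cKO uteri and 25.9 ± 2.36 RPKM in f/f uteri (SD, n = 8 each). No cKO library reached the Ctcf level of an f/f library. The deleted part of Ctcf is not stated in the labels. Pgr averaged 13.4 ± 3.6 RPKM in cKO and 11 ± 3.29 RPKM in f/f uteri after P4 (log2 fold change 0.27 ± 0.20, adjusted p = 0.373). After vehicle Pgr averaged 23.2 ± 3.84 RPKM in cKO and 39.5 ± 4.18 RPKM in f/f uteri (-0.77 ± 0.14, adjusted p = 0.000235). Its response to P4 differed between the genotypes by 1.04 ± 0.24 (adjusted p = 0.0197).

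Epithelial, stromal, smooth muscle and endothelial markers were present in every library, and the ovary markers Amh, Gdf9, Zp3 and Cyp17a1 stayed under 1 RPKM in every one. The summed leukocyte markers ran from 78.9 to 183 RPKM in cKO and from 49.8 to 79.7 RPKM in f/f uteri after P4. After vehicle they ran from 98 to 162 RPKM in cKO and from 50.4 to 75.1 RPKM in f/f uteri. All 6 tested leukocyte markers of the 8 listed were called higher in both genotype comparisons. Summed epithelial markers ran from 334 to 495 RPKM in cKO and from 248 to 429 RPKM in f/f uteri after P4, with 3 of 8 called higher and 0 lower. After vehicle they ran from 259.7 to 382 RPKM in cKO and from 328 to 469.5 RPKM in f/f uteri, with 1 of 8 called higher and 4 lower. Summed endothelial markers ran from 243 to 272 RPKM in cKO and from 210 to 236 RPKM in f/f uteri after P4, and from 232 to 325 RPKM in cKO and from 195 to 235 RPKM in f/f uteri after vehicle. Of the 6 endothelial markers 1 was called higher after P4 and 2 after vehicle, and of the 5 mesothelial markers likewise 1 and 2. The part of these cells in the IGF results was not tested. In bulk tissue, fewer cells of a type and less RNA per cell cannot be told apart. Another 5 libraries stood apart by markers of other tissue. Library 8 of the cKO P4 group and library 9 of the cKO vehicle group were high in squamous epithelium markers, with sums of 44.8 and 119 RPKM. They were also high in smooth muscle markers, with sums of 1973 and 2097 RPKM. Library 12 of the cKO vehicle group, library 7 of the f/f P4 group and library 3 of the f/f vehicle group were high in oviduct markers, with sums of 231, 423 and 165 RPKM. The 10 genes were also fitted without these 5 libraries, and such values are given for part of the results. For all other genes named here, only the fit over all 24 libraries is given. Adipose markers set apart 4 more libraries, with sums of 529.7 RPKM in library 1 of the f/f P4 group, 783 RPKM in library 5 of the cKO vehicle group, and 626 and 719 RPKM in libraries 4 and 10 of the f/f vehicle group. The other 20 libraries lay between -13.8 and 325 RPKM. A fit without these 4 libraries was added after the data were seen.

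The set covered a wide range of levels. By mean RPKM in f/f uteri after vehicle, which is a per-length scale, the order was Igfbp7, Igfbp4, Igfbp5, Igfbp3, Igfbp6, H19, Igf1, Igf2, Igf1r and Igfbp2. The highest mean was 301 ± 24 RPKM for Igfbp7 and the lowest 4.34 ± 1.88 RPKM for Igfbp2 (SD, n = 8). Neighbours in this order whose means lay within the sum of their SDs were Igfbp5 with Igfbp3, Igfbp6 with H19, Igf1 with Igf2, and Igf2 with Igf1r. In cKO uteri after vehicle, Igf2 was the fifth highest at 111 ± 16.8 RPKM and Igfbp2 was the sixth at 78.6 ± 14.6 RPKM (SD, n = 8). There Igf2 lay within that spread of Igfbp3, and Igfbp2 within that of Igfbp6 and H19.

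**Figure D1:**
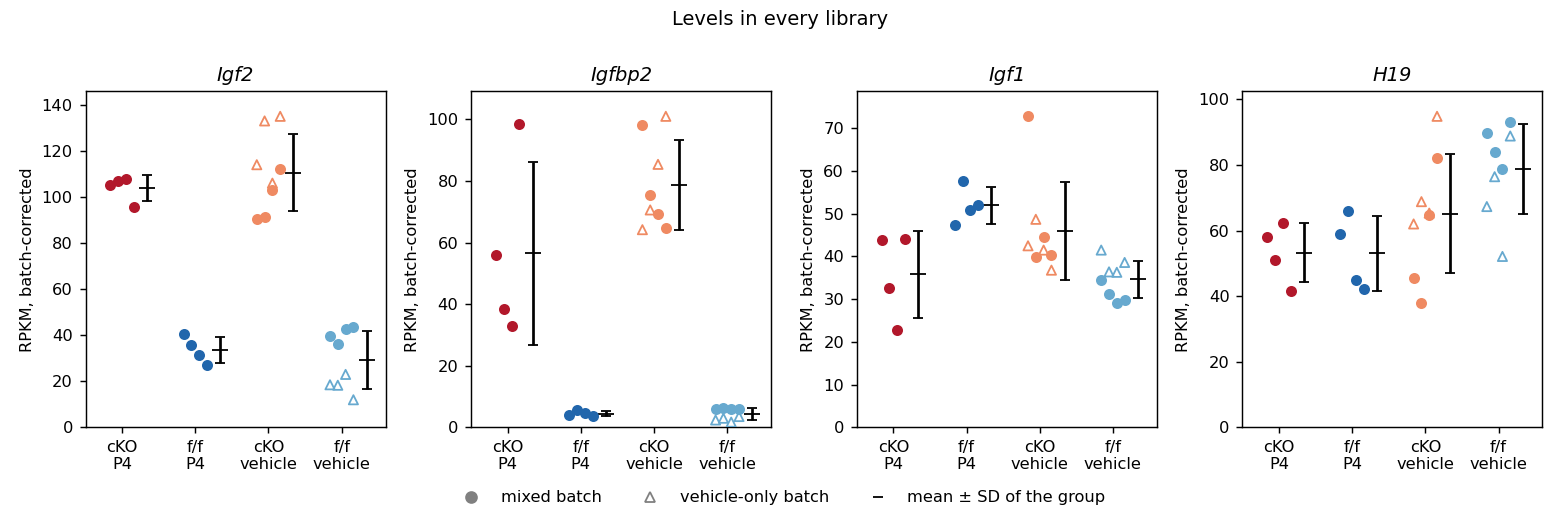
Batch-corrected RPKM of Igf2, Igfbp2, Igf1 and H19 in each library (y axis), for cKO and f/f uteri after P4 and after vehicle (x axis). Circles are the mixed batch, triangles the vehicle-only batch, and bars the group mean ± SD. Every cKO library lies above every f/f library for Igf2 and Igfbp2, while H19 overlaps between genotypes.

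Igf2, a ligand best known for fetal growth, was higher in cKO uteri with and without the hormone. After P4, Igf2 was at 105, 107, 108 and 95.5 RPKM in the 4 cKO libraries, against 40.4, 35.9, 31.3 and 27.1 RPKM in the 4 f/f libraries. After vehicle its lowest, median and highest values were 90.6, 109 and 135 RPKM in cKO, against 12, 29.5 and 43.4 RPKM in f/f uteri. The lowest cKO library thus lay above the highest f/f library under both treatments. The log2 fold change was 1.62 ± 0.26 after P4 (adjusted p = 0.000116) and 2.02 ± 0.19 after vehicle (adjusted p = 2.68e-08). Without the 5 libraries it was 1.63 after P4 (adjusted p = 0.00182) and 2.20 after vehicle (adjusted p = 9.61e-07). Without the 4 libraries high in adipose markers it was 1.71 after P4 (adjusted p = 0.000353) and 2.03 after vehicle (adjusted p = 9.74e-07).

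The size of the Igf2 difference after vehicle varied between batches. In the mixed batch Igf2 averaged 99.3 ± 10.4 RPKM in cKO and 40.5 ± 3.43 RPKM in f/f uteri, a difference of 58.8 RPKM (SD, n = 4 each). In the vehicle-only batch it averaged 122 ± 14.4 RPKM in cKO and 17.9 ± 4.5 RPKM in f/f uteri, a difference of 104 RPKM (SD, n = 4 each). The log2 fold changes in the batches fitted alone were 1.28 (adjusted p = 2.04e-06) and 2.76 (adjusted p = 3.78e-05), and the groups did not overlap in either batch. In the mixed batch, the P4 libraries of the same genotypes differed by 70.1 RPKM. An antisense gene, Igf2os, overlaps Igf2 and stayed between 0.102 and 0.638 RPKM. No source used here gives the strand setting of the counting, so reads of the pair cannot be told apart.

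Igf2 lies at chr7:142650766-142666816 on the minus strand and H19 at chr7:142575529-142578143 on the same strand (GENCODE M21, GRCm38), with a gap of 72.6 kb between them. RefSeq promoter windows (GRCm38.p6, 250 bases before to 50 after a start) were found for 9 of the 10 genes, 13 windows in all; H19 had none. The windows below are from Igf2 and Igfbp2, since these genes had the largest genotype differences of the set on the log2 scale. Printed are 3 of the 4 Igf2 starts and the first of the 2 Igfbp2 starts. Igf2 window 2 and Igfbp2 window 2 held no match to the motifs named next and were left out. Capitals mark matches, on either strand, to a CTCF core GGNGGCAG, a progesterone receptor half-site TGTTCT or a GC box GGGCGG. These letters occur in 12.6%, 19% and 35.7% of 32851 promoter windows of the same length. A match describes letters and is not evidence of binding.
Igf2 window 1, chr7:142666767-142667066, minus strand: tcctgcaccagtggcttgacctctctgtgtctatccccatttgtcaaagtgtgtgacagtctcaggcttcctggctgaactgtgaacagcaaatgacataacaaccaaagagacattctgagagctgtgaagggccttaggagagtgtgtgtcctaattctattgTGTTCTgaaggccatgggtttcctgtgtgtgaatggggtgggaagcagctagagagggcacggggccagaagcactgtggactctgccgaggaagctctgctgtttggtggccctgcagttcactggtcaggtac
Igf2 window 3, chr7:142658755-142659054, minus strand: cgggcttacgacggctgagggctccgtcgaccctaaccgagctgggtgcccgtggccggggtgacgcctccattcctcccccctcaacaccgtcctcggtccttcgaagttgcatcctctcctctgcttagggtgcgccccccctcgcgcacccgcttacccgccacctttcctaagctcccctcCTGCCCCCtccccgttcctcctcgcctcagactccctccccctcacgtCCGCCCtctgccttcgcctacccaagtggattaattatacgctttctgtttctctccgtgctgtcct
Igf2 window 4, chr7:142657447-142657746, minus strand: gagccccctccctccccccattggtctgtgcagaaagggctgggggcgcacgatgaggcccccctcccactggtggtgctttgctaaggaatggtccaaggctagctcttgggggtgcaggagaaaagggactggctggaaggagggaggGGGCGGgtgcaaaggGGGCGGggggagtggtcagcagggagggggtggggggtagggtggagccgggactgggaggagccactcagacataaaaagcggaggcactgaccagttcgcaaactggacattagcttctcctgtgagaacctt
Igfbp2 window 1, chr1:72824230-72824529, plus strand: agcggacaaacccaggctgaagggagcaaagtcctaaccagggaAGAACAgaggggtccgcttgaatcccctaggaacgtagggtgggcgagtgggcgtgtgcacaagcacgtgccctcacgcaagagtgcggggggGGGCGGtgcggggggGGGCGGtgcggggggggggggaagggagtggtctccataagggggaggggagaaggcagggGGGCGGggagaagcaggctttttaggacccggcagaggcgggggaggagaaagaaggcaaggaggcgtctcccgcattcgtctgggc

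In these windows, the half-site stands once in Igf2 window 1 and once, on the opposite strand, in Igfbp2 window 1. Igf2 window 3 holds the CTCF core once and the GC box once. Igf2 window 4 holds the GC box at 2 places and Igfbp2 window 1 at 3 places. Over the 13 windows, the CTCF core stood in 2, the half-site in 2 and the GC box in 5. A longer CTCF consensus of 14 bases, which ends in the core, stood in 0 of the 13. It stood in only 0.0365% of the 32851 promoter windows, so its absence from 13 windows says little. The other window with the CTCF core was that of Igfbp4, and no match of any of the motifs stood in the windows of Igf1, Igfbp3, Igfbp5 or Igfbp6.

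H19, an imprinted non-coding RNA, did not separate the genotypes. After P4 it was at 57.9, 51, 62.4 and 41.7 RPKM in cKO libraries, against 58.9, 66, 44.8 and 42.3 RPKM in f/f libraries. After vehicle its lowest, median and highest values were 37.9, 65 and 94.8 RPKM in cKO, against 52.1, 81.3 and 93.1 RPKM in f/f uteri. The groups overlapped under both treatments, and the log2 fold change was 0.01 ± 0.23 after P4 (adjusted p = 0.973) and -0.30 ± 0.16 after vehicle (adjusted p = 0.188). Within batches the vehicle values disagreed: H19 averaged 57.5 ± 19.9 RPKM in cKO and 86.3 ± 6.3 RPKM in f/f uteri of the mixed batch (log2 fold change -0.64, adjusted p = 0.0433). In the vehicle-only batch it averaged 72.7 ± 15 RPKM in cKO and 71.2 ± 15.5 RPKM in f/f uteri (log2 fold change 0.04, adjusted p = 0.955).

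Set against each other in the same library, Igf2 and H19 changed order with genotype. Igf2 minus H19 ran from 45.1 to 56.3 RPKM in cKO and from -30.1 to -13.5 RPKM in f/f uteri after P4. After vehicle it ran from 30.2 to 64.2 RPKM in cKO and from -76.8 to -29.2 RPKM in f/f uteri. Igf2 was therefore the higher of the pair in 4 of 4 and 8 of 8 cKO libraries, and in 0 of 4 and 0 of 8 f/f libraries. The sign of this difference depends on the constants of the batch correction, while the gap between genotypes within a batch does not.

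**Figure D2:**
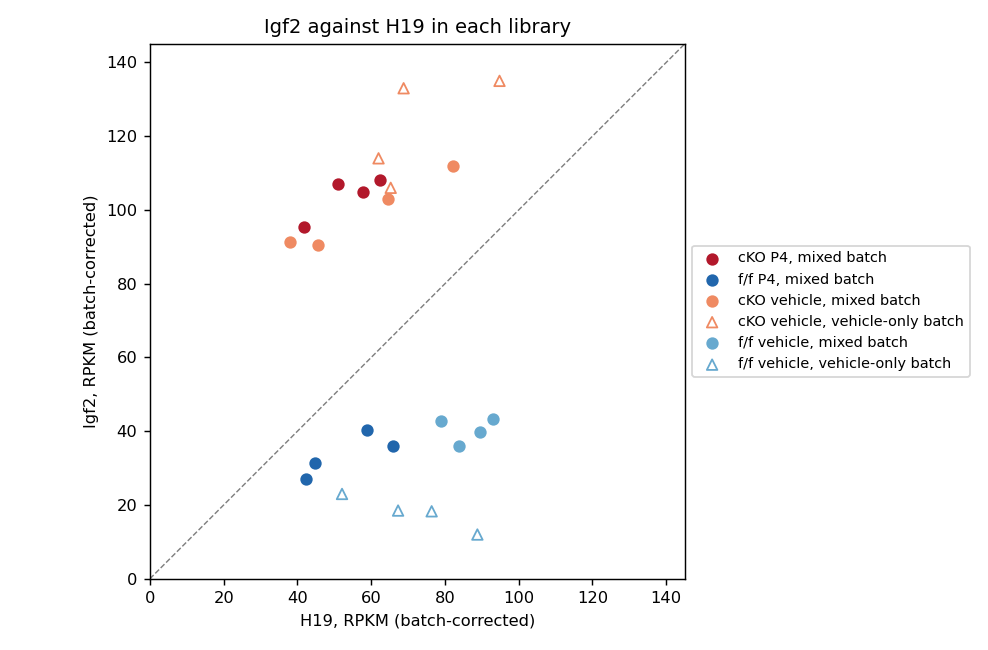
Igf2 (y axis) against H19 (x axis) in batch-corrected RPKM, 1 point per library, coloured by genotype and treatment; circles are the mixed batch, triangles the vehicle-only batch, and the dashed line marks equal values. All cKO libraries lie above the line and all f/f libraries below it.

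The transcripts of H19 and Igf2 each host a microRNA. Their mature forms are not analysed here and are shown because the host RNAs are members of the set. The sequences are those of RefSeq (GRCm38.p6), and capitals mark the seed, bases 2 to 8. Only host transcript levels, above, come from the data.
mmu-miR-675-5p in H19, chr7:142577112-142577133, minus strand: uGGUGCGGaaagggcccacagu
mmu-miR-675-3p in H19, chr7:142577078-142577099, minus strand: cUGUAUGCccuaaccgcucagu
mmu-miR-483-5p in Igf2, chr7:142654968-142654989, minus strand: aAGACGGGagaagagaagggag
mmu-miR-483-3p in Igf2, chr7:142654932-142654952, minus strand: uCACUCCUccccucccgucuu

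The 4 seeds are different from each other, so none of the mature forms shares a seed with another.

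Genes near Igf2 were read against the share called over all genes. Of the 13 other tested genes whose start lies within 500 kb of the Igf2 start, H19 included, limma called 0 higher and 2 lower after P4, and 0 higher and 6 lower after vehicle. Over all tested genes 12.3% were called higher and 7.06% lower after P4, and 13.1% higher and 11.5% lower after vehicle, 19.4% and 24.6% in either direction; the 2 of 13 after P4 are near that share. At an unadjusted p below 0.05 the counts were 1 higher and 3 lower after P4, and 0 higher and 8 lower after vehicle. Mrpl23, which encodes a mitochondrial ribosomal protein and lies just beyond H19, was lower in both. It averaged 14.4 ± 4.27 RPKM in cKO and 20.4 ± 2.92 RPKM in f/f uteri after P4 (log2 fold change -0.51 ± 0.16, adjusted p = 0.0223). After vehicle Mrpl23 averaged 14.2 ± 2.25 RPKM in cKO and 24.7 ± 1.83 RPKM in f/f uteri (-0.79 ± 0.11, adjusted p = 8.60e-06). Tnni2, a troponin gene of fast skeletal muscle, was also lower in both, with log2 fold changes of -1.39 after P4 and -1.07 after vehicle. Summed skeletal muscle markers ran from 43.7 to 114 RPKM in cKO and from 72.2 to 91 RPKM in f/f uteri after P4, and from 18.3 to 59.3 RPKM in cKO and from 55.6 to 118 RPKM in f/f uteri after vehicle. Of the 3 tested skeletal muscle markers of the 5 listed, 0 were called after P4 and 2 were called lower in cKO uteri after vehicle; their part in the Tnni2 result was not tested.

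Called lower after vehicle, and not called after P4, were Ctsd, Ifitm10, Trpm5 and Kcnq1. Ctsd, the gene of the lysosomal protease cathepsin D, had log2 fold changes of -0.37 after P4 and -0.67 after vehicle, and Ifitm10 had -0.37 and -0.55. The highest cKO values of Ifitm10 were 0.893 RPKM after P4 and 0.7 RPKM after vehicle. It thus passed the filter of 1 RPKM through f/f libraries alone. Its call, which is among the lower counts after vehicle, is not independent of that filter. Trpm5, a cation channel gene, had 0.14 after P4 and -0.94 after vehicle, and Kcnq1, a potassium channel gene, had 0.18 and -0.83. The response of Kcnq1 to P4 differed between the genotypes. It averaged 12.1 ± 2.13 RPKM after P4 (n = 4) and 5 ± 0.949 RPKM after vehicle (n = 8) in cKO uteri, or 1.16 ± 0.17 as log2 fold change (adjusted p = 0.000138). The difference in response between cKO and f/f uteri was 1.01 ± 0.22 for Kcnq1 (adjusted p = 0.0108) and 1.09 ± 0.28 for Trpm5 (adjusted p = 0.035). The summed epithelial markers had medians of 405 RPKM in cKO and 332 RPKM in f/f uteri after P4, and of 289 RPKM in cKO and 368 RPKM in f/f uteri after vehicle; their part in the Kcnq1 and Trpm5 results was not tested. A list of 25 chromosome 7 neighbours, of which 17 were tested, overlapped these genes. In it 1 was called higher and 2 lower after P4, and 2 higher and 6 lower after vehicle. The lower ones are the same genes as those named above, not further calls. Among all tested genes 12.3% were called higher and 7.06% lower after P4, 19.4% in either direction. After vehicle 13.1% were called higher and 11.5% lower, 24.6% in either direction. The 2 higher ones of the list after vehicle were Tnfrsf23, a decoy receptor gene, and Dusp8, a phosphatase gene. Tnfrsf23 was called under both treatments.

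**Figure D3:**
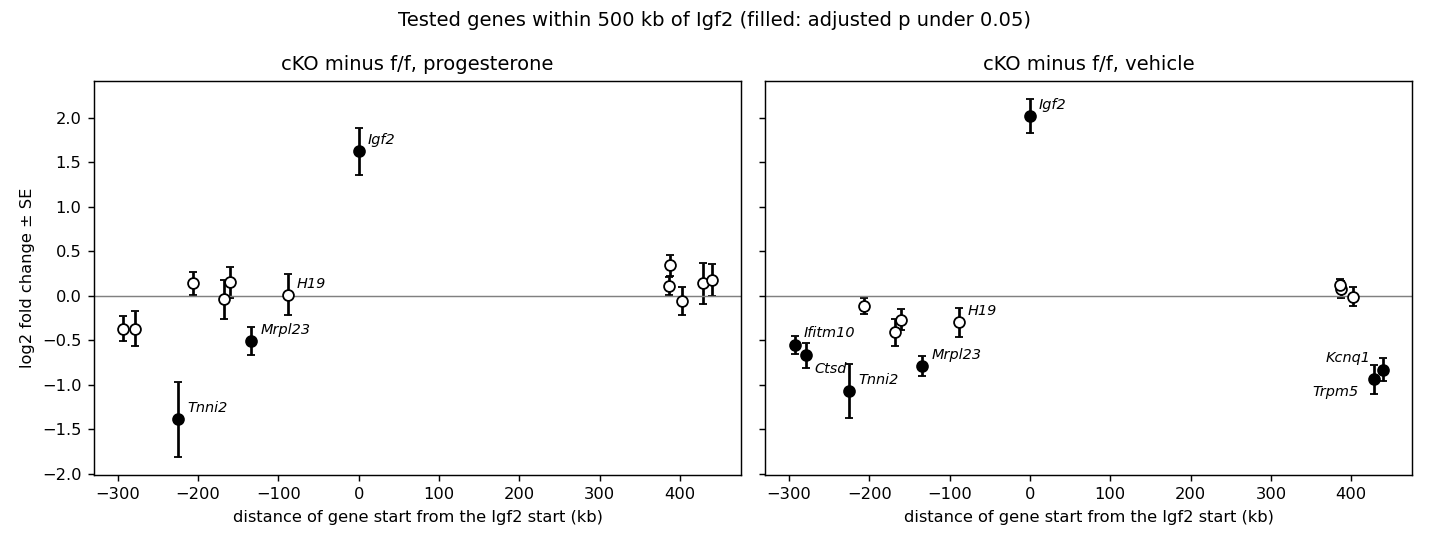
Log2 fold change ± SE of cKO over f/f uteri (y axis) for the tested genes within 500 kb of Igf2, against the distance of their start from that of Igf2 in kb (x axis), after P4 at left and after vehicle at right. Filled points were called; Igf2 is the only filled point above 0 in either panel.

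Igfbp2, a binding protein with affinity for both ligands, had the largest genotype difference of the set on the log2 scale. After P4, Igfbp2 was at 56, 38.6, 32.9 and 98.4 RPKM in cKO libraries, against 3.93, 5.52, 4.61 and 3.6 RPKM in f/f libraries. After vehicle its lowest, median and highest values were 64.2, 72.9 and 101 RPKM in cKO, against 1.72, 4.67 and 6.34 RPKM in f/f uteri. The groups lay far apart under both treatments. The log2 fold change was 3.42 ± 0.30 after P4 (adjusted p = 3.08e-08) and 4.12 ± 0.21 after vehicle (adjusted p = 6.66e-12). By log2 fold change Igfbp2 ranked 9 from the highest after P4 and 2 from the highest after vehicle among 14284 genes. Without the 5 libraries it was 3.13 (adjusted p = 2.85e-06) and 4.23 (adjusted p = 5.94e-10). The values were 3.37 (adjusted p = 9.08e-07) and 4.03 (adjusted p = 1.68e-09) without the 4 libraries high in adipose markers.

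A constant shift per batch has no effect on differences in RPKM within a batch. The Igfbp2 difference in RPKM was 52.1 after P4, and 70.9 and 77.7 in the mixed and the vehicle-only batch after vehicle. In RPKM Igf2 differed more than Igfbp2 after P4 (70.1) and in the vehicle-only batch (104). The fold change rests on low f/f values, which averaged 6.02 ± 0.225 RPKM in the mixed batch and 2.66 ± 0.777 RPKM in the vehicle-only batch (SD, n = 4 each). Igfbp2 made up 3.64 to 8.94% of the summed RPKM of the 6 binding proteins in cKO and 0.425 to 0.651% in f/f uteri after P4. After vehicle it made up 5.82 to 9.3% in cKO and 0.167 to 0.697% in f/f uteri. The summed RPKM itself had medians of 893 in cKO and 832 in f/f uteri after P4, and of 1050 in cKO and 1010.5 in f/f uteri after vehicle.

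Igfbp5 lies beside Igfbp2 on chromosome 1, at chr1:72857932-72874884 on the minus strand, 5.46 kb from the end of Igfbp2 at chr1:72824503-72852474 on the plus strand. Its protein binds IGFs and the extracellular matrix. After P4, Igfbp5 was at 153, 135, 135 and 138 RPKM in cKO libraries, against 108, 132, 115 and 114 RPKM in f/f libraries. These groups did not overlap, but the log2 fold change of 0.26 ± 0.12 missed the threshold (adjusted p = 0.127). After vehicle its lowest, median and highest values were 204, 217 and 314 RPKM in cKO, against 165, 183 and 225 RPKM in f/f uteri. Here the groups overlapped and the log2 fold change was 0.30 ± 0.08 (adjusted p = 0.0098). Within the mixed batch it was 0.39 (adjusted p = 0.0315). The call was lost in the vehicle-only batch alone (0.20, adjusted p = 0.429), without the 5 libraries (0.21, adjusted p = 0.0551), without the 4 libraries high in adipose markers (0.29, adjusted p = 0.0522) and after quantile normalization (0.24, adjusted p = 0.062).

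Igf1, the ligand induced by steroid hormones in uterine stroma, differed between genotypes in opposite directions under the 2 treatments. The gene lies at chr10:87858265-87937042 on the plus strand. After P4, Igf1 was at 43.9, 32.6, 22.9 and 44 RPKM in cKO libraries, against 47.3, 57.6, 50.9 and 52.1 RPKM in f/f libraries. After vehicle its lowest, median and highest values were 36.8, 42 and 72.8 RPKM in cKO, against 29.2, 35.4 and 41.5 RPKM in f/f uteri. Every cKO library lay below every f/f library after P4, while the groups overlapped after vehicle. The log2 fold change was -0.57 ± 0.19 after P4 (adjusted p = 0.0337) and 0.38 ± 0.13 after vehicle (adjusted p = 0.0386).

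Both Igf1 calls were close to the threshold. After P4 the call was lost without cKO P4 library 5 or 6 or f/f P4 library 2, 7 or 9, with log2 fold changes from -0.69 to -0.38 over the 24 single omissions. Without the 5 libraries it was -0.70 (adjusted p = 0.00978). After vehicle it was lost without cKO library 5, 9 or 11b, or without f/f library 1b, 2, 3, 4 or 7, with values from 0.27 to 0.43. It was also lost with no filter on low values (adjusted p = 0.0535), and with RPKM not logged both calls were lost (adjusted p = 0.0588 after P4 and 0.0511 after vehicle). Without the 5 libraries it was 0.24 (adjusted p = 0.164). Both calls were also lost without the 4 libraries high in adipose markers, at -0.62 after P4 (adjusted p = 0.0594) and 0.34 after vehicle (adjusted p = 0.147). In the mixed batch Igf1 averaged 49.4 ± 15.7 RPKM in cKO and 31.2 ± 2.38 RPKM in f/f uteri (log2 fold change 0.61, adjusted p = 0.0449). In the vehicle-only batch it averaged 42.4 ± 4.89 RPKM in cKO and 38.2 ± 2.47 RPKM in f/f uteri (0.14, adjusted p = 0.535). Stromal marker sums, in whose cells Igf1 is known to be made, ran from 995 to 1444 RPKM in cKO and from 1164 to 1498 RPKM in f/f uteri after P4, with 2 of 8 markers called lower. After vehicle they ran from 1259 to 2271 RPKM in cKO and from 1284 to 1612 RPKM in f/f uteri, again with 2 of 8 called lower. Their part in the Igf1 result was not tested.

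The receptor gene Igf1r and the binding protein genes Igfbp3, Igfbp4, Igfbp6 and Igfbp7 were called in neither genotype comparison. Igf1r lies at chr7:67952827-68233668, Igfbp3 at chr11:7206086-7213923, Igfbp4 at chr11:99041244-99054392, Igfbp6 at chr15:102144362-102149511 and Igfbp7 at chr5:77349240-77408041. After P4 their log2 fold changes of cKO over f/f uteri lay between -0.11 for Igfbp3 and 0.15 for Igfbp7. After vehicle they lay between -0.31 for Igfbp3 and 0.08 for Igfbp7. Igf1r, the receptor of both ligands, averaged 13.3 ± 3.79 RPKM in cKO and 13.6 ± 2.34 RPKM in f/f uteri after P4 (SD, n = 4 each). After vehicle it averaged 15.7 ± 2.16 RPKM in cKO and 17.6 ± 2.7 RPKM in f/f uteri (SD, n = 8 each). Igfbp7, which binds IGFs weakly and is abundant in vessels, was the highest of the set in every group, at 323 ± 51.4 RPKM in cKO and 290.1 ± 13.6 RPKM in f/f uteri after P4. The SEs of these log2 fold changes ran from 0.11 to 0.21 after P4 and from 0.08 to 0.15 after vehicle. Differences larger than their SE could still go uncalled. After vehicle this was so for Igfbp3 (-0.31 ± 0.15, adjusted p = 0.138) and Igfbp6 (-0.30 ± 0.14, adjusted p = 0.128). Changes of that size are not excluded for these genes. Igfbp3 and Igfbp6 were highest of the f/f P4 group in library 1, at 186 and 127 RPKM, the library of that group highest in adipose markers. Without the 4 libraries high in these markers their log2 fold changes after P4 were 0.05 for Igfbp3 and 0.10 for Igfbp6, and neither was called.

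**Figure D4:**
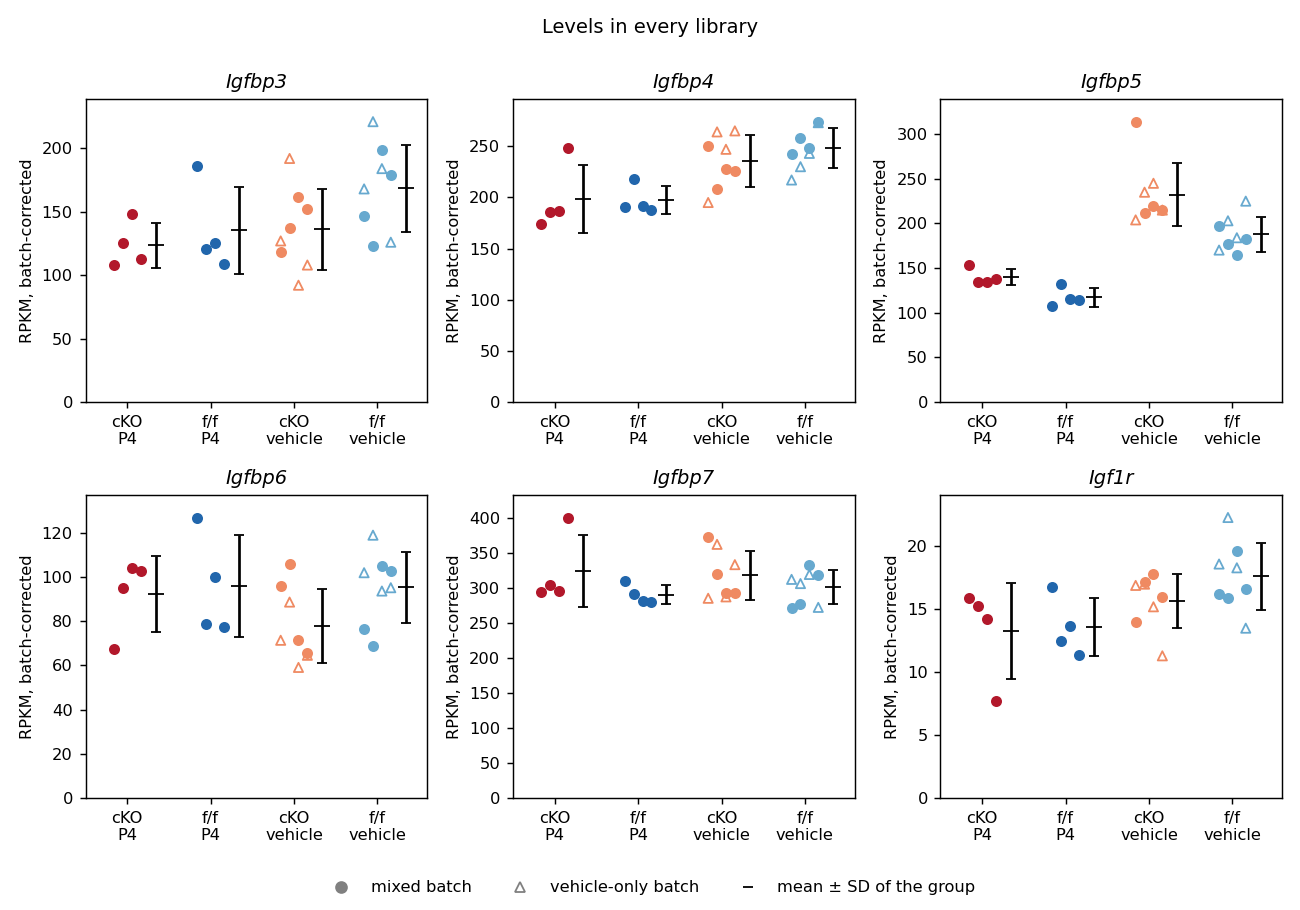
Batch-corrected RPKM of Igfbp3, Igfbp4, Igfbp5, Igfbp6, Igfbp7 and Igf1r in each library (y axis), for cKO and f/f uteri after P4 and after vehicle (x axis). Circles are the mixed batch, triangles the vehicle-only batch, and bars the group mean ± SD. Igfbp5 is lower after P4 than after vehicle in both genotypes, and the other genes overlap between genotypes.

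Across the set, 2 of 10 genes were called higher (Igf2 and Igfbp2) and 1 lower (Igf1) in cKO uteri after P4. Over all tested genes 19.4% were called, 12.3% higher and 7.06% lower. Of those calls 63.5% were higher, and 52.7% after quantile normalization. After vehicle 4 of 10 were called higher (Igf1, Igf2, Igfbp2 and Igfbp5) and 0 lower, against 24.6% of all tested genes, 13.1% higher and 11.5% lower. At an unadjusted p below 0.05, 2 of 10 were lower after vehicle, Igfbp3 and Igfbp6. Groups did not overlap for 4 of 10 genes after P4 (21.5% of all tested genes) and for 2 of 10 after vehicle (8.43%). The median log2 fold change of the 10 genes was 0.01 after P4, against 0.027 for all genes, and -0.00 after vehicle, against -0.008.

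**Figure D5:**
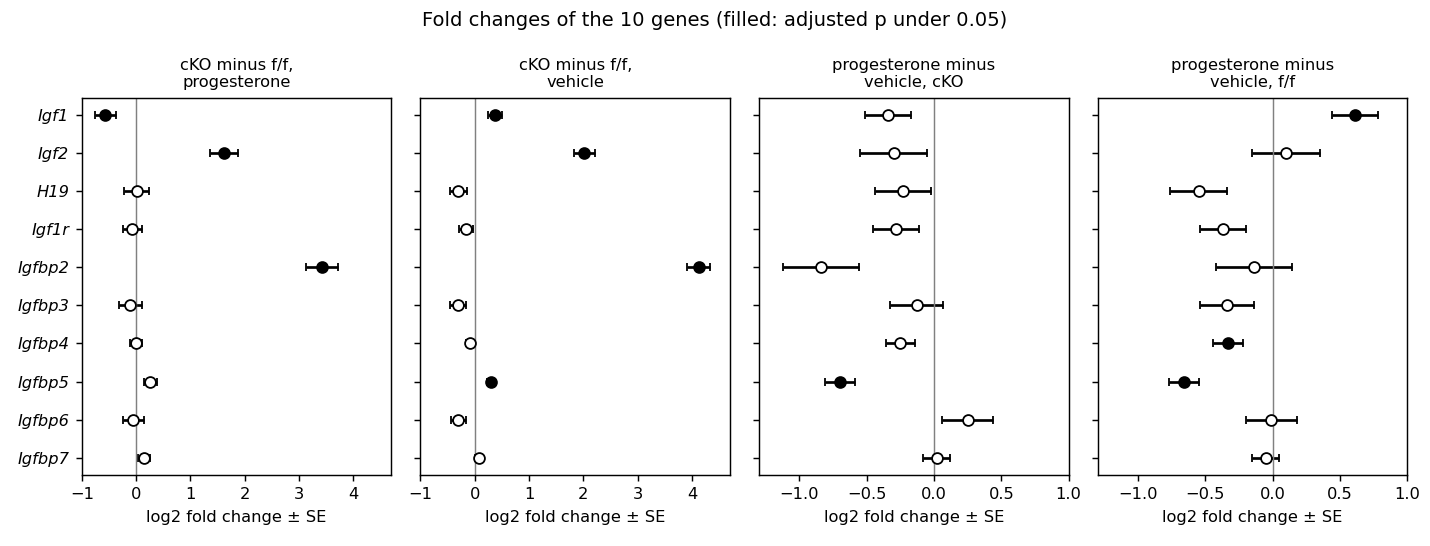
Log2 fold change ± SE (x axis) of each of the 10 genes (rows) for cKO over f/f uteri after P4 and after vehicle, and for P4 over vehicle in cKO and in f/f uteri; the hormone panels have a narrower scale. Filled points were called. Igf2 and Igfbp2 stand far to the right in both genotype panels, and Igfbp5 stands to the left in both hormone panels.

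The response to 6 h of P4 was then read within each genotype. In f/f uteri 1 of the 10 genes was called higher and 2 lower, against 7.84% higher and 15.1% lower among all tested genes, 23% in either direction. Of the calls over all genes there 34.1% were higher, and 46.5% after quantile normalization. In cKO uteri limma called 0 higher and 1 lower, against 4% higher and 4.66% lower, 8.67% in either direction. At an unadjusted p below 0.05 the cKO counts were 0 higher and 3 lower. Groups did not overlap for 2 of 10 genes in f/f uteri (14% of all tested genes) and for 1 of 10 in cKO uteri (7.74%). The vehicle libraries enter both the genotype and the hormone comparisons, so these results are not independent of each other.

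Igfbp5 fell after P4 in both genotypes. In cKO uteri it averaged 141 ± 8.63 RPKM after P4 (n = 4) and 232 ± 35.5 RPKM after vehicle (n = 8), and the log2 fold change was -0.70 ± 0.11 (adjusted p = 0.000295). In f/f uteri it averaged 117 ± 10.2 RPKM after P4 (n = 4) and 188 ± 19.7 RPKM after vehicle (n = 8), and the log2 fold change was -0.66 ± 0.11 (adjusted p = 0.00013). The highest P4 library lay below the lowest vehicle library in each genotype, and both calls held in every alternative fit. The difference in response between the genotypes was -0.04 ± 0.14 (adjusted p = 0.946).

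Igf1 rose after P4 in f/f uteri, where the P4 libraries lay above all 8 vehicle libraries. It averaged 52 ± 4.27 RPKM after P4 (n = 4) and 34.7 ± 4.36 RPKM after vehicle (n = 8), and the log2 fold change was 0.61 ± 0.17 (adjusted p = 0.0141). The call was lost without the 4 libraries high in adipose markers (0.61, adjusted p = 0.0641). In cKO uteri it averaged 35.9 ± 10.2 RPKM after P4 (n = 4) and 45.9 ± 11.4 RPKM after vehicle (n = 8). The groups overlapped there and the log2 fold change of -0.34 ± 0.17 was not called (adjusted p = 0.257). The difference in response was -0.95 ± 0.23 (adjusted p = 0.0243), and Igf1 was the 1 gene of the 10 called for it, against 2.49% of all tested genes, 1.46% with a positive and 1.03% with a negative difference. It was -1.18 in the mixed batch alone (adjusted p = 0.0328) and -0.94 without the 5 libraries (adjusted p = 0.0299). Without the 4 libraries high in adipose markers it was -0.96 and not called (adjusted p = 0.0817). The call was lost without cKO P4 library 5 or 6, or f/f P4 library 2 or 9, with values from -1.06 to -0.76 over the 24 single omissions.

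Igfbp4, a binding protein that restrains IGF action until it is cleaved, fell after P4 in f/f uteri by 0.33 ± 0.11 on the log2 scale (adjusted p = 0.0283). It averaged 197 ± 14 RPKM after P4 (n = 4) and 248 ± 19.7 RPKM after vehicle (n = 8). The call was lost without f/f P4 library 1, 7 or 9, without f/f vehicle library 2 or 4, without the 5 libraries (-0.32, adjusted p = 0.0756) and without the 4 libraries high in adipose markers (-0.30, adjusted p = 0.125). In cKO uteri it averaged 199 ± 33.6 RPKM after P4 (n = 4) and 235 ± 25.6 RPKM after vehicle (n = 8), and the log2 fold change was -0.25 ± 0.11 (adjusted p = 0.159). The difference in response was 0.08 ± 0.14 (adjusted p = 0.871), so a weaker response in cKO uteri was not shown.

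Igfbp2 in cKO uteri averaged 56.5 ± 29.6 RPKM after P4 (n = 4) and 78.6 ± 14.6 RPKM after vehicle (n = 8), and the log2 fold change was -0.84 ± 0.28 (adjusted p = 0.0628). Library 8 of the cKO P4 group, at 98.4 RPKM, made this difference smaller. Without it the log2 fold change was -1.15 (adjusted p = 0.00954), and without the 5 libraries -1.25 (adjusted p = 0.0303). It was also called without cKO vehicle library 12 (adjusted p = 0.0432). In the mixed batch alone, which holds all P4 libraries, it was -0.56 and not called (adjusted p = 0.192). In f/f uteri Igfbp2 averaged 4.42 ± 0.847 RPKM after P4 (n = 4) and 4.34 ± 1.88 RPKM after vehicle (n = 8), and the log2 fold change was -0.14 ± 0.28 (adjusted p = 0.772).

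Igf2 and H19 were not called for P4 in either genotype. The Igf2 response in cKO uteri was -0.30 ± 0.25 over both batches (adjusted p = 0.513) but 0.07 in the mixed batch alone (adjusted p = 0.777). In f/f uteri it was 0.10 ± 0.25 over both batches (adjusted p = 0.83) and -0.27 in the mixed batch (adjusted p = 0.0831), so its direction depended on the batches used. H19 in f/f uteri averaged 53 ± 11.3 RPKM after P4 (n = 4) and 78.8 ± 13.6 RPKM after vehicle (n = 8), and the log2 fold change was -0.55 ± 0.21 (adjusted p = 0.0667). In the mixed batch alone, where vehicle libraries averaged 86.3 ± 6.3 RPKM, the groups did not overlap and it was called (-0.72, adjusted p = 0.0181). In cKO uteri the H19 response was -0.23 ± 0.21 (adjusted p = 0.57).

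Igf1r was not called in f/f (-0.37 ± 0.17, adjusted p = 0.127) or in cKO uteri (-0.28 ± 0.17, adjusted p = 0.36). Igfbp3, Igfbp6 and Igfbp7 had responses from -0.13 to 0.25 in cKO and from -0.34 to -0.01 in f/f uteri, and none was called. Over the set, the median response was -0.27 in cKO and -0.24 in f/f uteri, against -0.022 and -0.063 for all tested genes.

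The wider IGF pathway was read from a list of 52 genes, of which 51 were in the table and 46 were tested. Igfbp1, Igfbpl1, Igf2bp1, Lin28b and Ins2 were under the filter and Ins1 was not matched. In cKO uteri against f/f uteri, 7 were called higher and 4 lower after P4, and 7 higher and 1 lower after vehicle. That is 23.9% and 17.4% of the list, against 19.4% and 24.6% of all tested genes. The median log2 fold changes were 0.02 after P4 and -0.01 after vehicle, against 0.027 and -0.008 for all genes. Igf2bp3, an RNA-binding protein of the fetal IGF2 mRNA-binding family, averaged 2.39 ± 0.685 RPKM in cKO and 0.507 ± 0.085 RPKM in f/f uteri after P4 (log2 fold change 1.50 ± 0.15, adjusted p = 2.06e-07). After vehicle it averaged 2.16 ± 0.368 RPKM in cKO and 0.689 ± 0.122 RPKM in f/f uteri (1.16 ± 0.11, adjusted p = 2.11e-08). The highest f/f values of Igf2bp3 were 0.592 RPKM after P4 and 0.871 RPKM after vehicle. It thus passed the filter of 1 RPKM through cKO libraries alone, and its calls are not independent of that filter.

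Htra1, a secreted serine protease that can cleave IGF-binding proteins, was higher in cKO uteri in both comparisons. It averaged 88 ± 13.9 RPKM in cKO and 54.2 ± 3.24 RPKM in f/f uteri after P4 (0.68 ± 0.14, adjusted p = 0.00107). After vehicle it averaged 98 ± 17.7 RPKM in cKO and 52.6 ± 5.36 RPKM in f/f uteri (0.88 ± 0.10, adjusted p = 3.94e-07). Igf2r, the receptor that clears IGF2, was higher in cKO uteri after vehicle, at 30.1 ± 2.24 RPKM against 24.2 ± 1.69 RPKM in f/f uteri (0.31 ± 0.08, adjusted p = 0.0076). The log2 fold change of Igf2r was 0.16 after P4 (adjusted p = 0.361). Insrr, a receptor related to that of insulin, was called higher after P4 (0.42) and after vehicle (0.40). Its levels were near the filter, with means of 0.919 RPKM in cKO and 0.558 RPKM in f/f uteri after P4. After vehicle they were 0.944 RPKM in cKO and 0.595 RPKM in f/f uteri. The highest f/f values of Insrr were 0.679 RPKM after P4 and 1.01 RPKM after vehicle. It thus passed the filter mainly through cKO libraries, and its calls are not independent of that filter. The adaptor gene Grb10 was called lower after P4 (-0.25) and higher after vehicle (0.24). After P4 the kinase gene Mtor was called lower (-0.41) and the insulin receptor substrate gene Irs1 higher (0.49).

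The P4 responses of the pathway list were counted within each genotype. In cKO uteri limma called 0 of 46 higher and 3 lower (0 and 8 at an unadjusted p below 0.05), namely Plagl1 (-0.60), Igf2r (-0.55) and Foxo1 (-0.39). In f/f uteri 4 were called higher and 13 lower, and over all genes too more calls were lower than higher there (15.1% lower and 7.84% higher), a lean that shrank after quantile normalization. In cKO uteri 4.66% of all genes were called lower and 4% higher. For the list the median responses were -0.10 in cKO and -0.13 in f/f uteri. The counts of the genotypes were not tested against each other. Pappa, which cleaves IGFBP-4, averaged 1.48 ± 0.555 RPKM after P4 and 4.41 ± 1.32 RPKM after vehicle in f/f uteri (-1.35 ± 0.26, adjusted p = 0.000745). Irs1 and the adaptor gene Gab1 fell there by 0.71 and 0.66 on the log2 scale, and Grb10 rose by 0.55.

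Adamts1, a secreted protease known as a progesterone target in the ovary, had different responses in the genotypes. It averaged 23.1 ± 2.03 RPKM in cKO and 46.5 ± 4.3 RPKM in f/f uteri after P4 (-0.99 ± 0.12, adjusted p = 3.17e-06). In f/f uteri its level after vehicle was 26.7 ± 3.67 RPKM, and the response was 0.80 ± 0.11 (adjusted p = 2.34e-05). In cKO uteri the response was 0.03 ± 0.11 (adjusted p = 0.931). The difference in response was called for 2 of the 46 pathway genes, where 2.49% of all tested genes were called. They were Adamts1 (-0.77 ± 0.15, adjusted p = 0.00422) and Grb10 (-0.49 ± 0.11, adjusted p = 0.0127).

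The genes whose levels followed those of 4 members most closely were found by Pearson correlation over the 24 libraries of log2 values less the vehicle mean of their batch. The libraries share groups and batches, so no p is given. For Igf2 they were Carmil2 (r = 0.972), Cldn6 (0.970) and Pm20d1 (0.961). For Igfbp2 they were Robo3 (0.980), Tmem132a (0.971) and A930037H05Rik (0.970). Mean f/f levels after P4 and after vehicle were 0.658 and 0.0231 RPKM for Carmil2, and 0.666 and 0.44 RPKM for Pm20d1. They were 0.471 and 0.0877 RPKM for Robo3, and 0.43 and 0.59 RPKM for A930037H05Rik. These means lie under the filter of 1 RPKM, so these genes may have passed it through cKO libraries. Each r includes the genotype difference and is not separate from it. Cldn6, a claudin of early epithelia, averaged 10.6 RPKM in cKO and 1.18 RPKM in f/f uteri after P4, and 10.2 RPKM in cKO and 0.335 RPKM in f/f uteri after vehicle. For Igf1 they were Csnk1a1 (0.878), Cd164 (0.871) and Rab30 (0.846), and for H19 Rian (0.826), Obsl1 (0.821) and Pianp (0.816). Rian, an imprinted non-coding RNA of the Dlk1 cluster, averaged 8.1 RPKM in cKO and 10.5 RPKM in f/f uteri after P4, and 13.5 RPKM in cKO and 19 RPKM in f/f uteri after vehicle.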

How the data were processed

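RNA of 24 mouse uterus libraries was sequenced from TruSeq libraries made after Trizol extraction, per the labels' protocols. The tools named in the submitters' processing notes are cutadapt 2.7, TopHat and Partek, and the genome build is mm10. No source used here gives the counting tool, annotation, strand setting or batch-correction tool.

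The 1 file the authors deposited holds RPKM per gene after a batch correction, a unit that is neither plain RPKM nor counts. Of its values, 6.66% lie below 0, and 0 of those of the 10 genes do. For 13688 of 13688 genes with a vehicle mean above 1, that mean was the same in both batches to a relative 0.0001. The correction was therefore read as 1 added constant per gene and batch. Equal means do not exclude a change of scale within a batch, which was not tested. The design assumed plain RPKM; its test was run after setting values below 0 to 0.

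Genes that reached 1 RPKM in 4 or more libraries were tested on log2(RPKM + 0.5) with limma 3.58.1 under R 4.3.3, using eBayes with the trend and robust options. The 4 groups and a batch term left 19 residual degrees of freedom beside 3.34 prior ones at the median. Two-sided p-values were adjusted by Benjamini-Hochberg over all tested genes at 0.05. The fit was run on simulated data whose changes were larger than many called here and which held no batch shift. Smaller changes and batch effects were therefore not covered by it. Depth was estimated from the worth of a single read in at least 149 genes per library, since the table gives no counts. The median absolute log2 difference was 0.143 between vehicle libraries 11a and 11b and 0.183 between 1a and 1b. Of the 30 other pairs of 1 group across batches (0.106 to 0.281), 9 were more alike than 11a and 11b, and 16 more alike than 1a and 1b; all were kept.

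The members, gene and marker lists, alternatives and naming rule were chosen with earlier results of these data known. The rule took all 10 genes, up to 5 called pathway genes per comparison with the smallest adjusted p, listed chromosome 7 neighbours, and the 3 most similar genes of 4 members. Alternatives were other pseudocounts, filters and scalings, RPKM not logged, each batch alone, no batch term, weights per library, a replicate block, omission of the 5 libraries with markers of other tissue, of each library in turn and, added after the data were seen, of 4 libraries whose summed adipose markers passed 500 RPKM. Coordinates of genes are from GENCODE M21 (21885 symbols matched).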

Additional observations from a re-analysis of the deposited data

Results flagged for a closer look

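In 40 groups of libraries (10 genes in 4 groups), 5 had a library far from its neighbours relative to the range of the group. By chance about 1 in 20 groups would have this. The groups share libraries, and the count was not tested against that rate. Igf1 was at 72.8 RPKM in library 9 of the cKO vehicle group, where the next value was 48.7 RPKM. Igfbp5 was at 314 RPKM in the same library, with the next at 245 RPKM. This library also had the highest sums of stromal (2271 RPKM), smooth muscle (2097 RPKM) and squamous epithelium (119 RPKM) markers of any library; their part in these values was not tested.

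Igfbp7 was at 400.3 RPKM in library 8 of the cKO P4 group, with the next at 304 RPKM. Its smooth muscle sum of 1973 RPKM and its squamous epithelium sum of 44.8 RPKM were the highest of its group, and their part in the value was not tested. Igfbp5 was at 153 RPKM in library 4 of the cKO P4 group, with the next at 138 RPKM. Igfbp4 was at 218 RPKM in library 2 of the f/f P4 group, with the next at 192 RPKM.

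The response of Igf1 to P4 differed between cKO and f/f uteri, by -0.95 on the log2 scale in the test of the difference itself (limma, adjusted p = 0.0243). Without the 4 libraries high in adipose markers it was -0.96 and not called (adjusted p = 0.0817).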

How the results depend on the processing

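The calls of Igf2 and Igfbp2 between genotypes and of Igfbp5 after P4 in both genotypes held in every fit listed in the methods; no called value changed sign. After vehicle the 4 called genes became 2 in the vehicle-only batch alone and 2 without the 5 libraries. Without the 4 libraries high in adipose markers, a fit added after the data were seen, the counts were 2 for genotype after vehicle, 2 for genotype after P4, 1 for P4 in f/f, 1 for P4 in cKO and 0 for the difference in response; with an unadjusted p below 0.05 the last was 1 (Igf1). The count after P4 in f/f uteri was 5 with weights per library, against 3. In cKO uteri the count of 1 became 3 after quantile normalization, 6 with weights, 2 with the replicate block and 2 without the 5 libraries, and the difference in response went to 2 with weights. The weights did not converge and called 6500 genes after vehicle, against 3516, so these counts are uncertain. Leaving out 1 library at a time gave 3 to 4 calls for genotype after vehicle, 2 to 4 for genotype after P4, 2 to 4 for P4 in f/f, 1 to 3 for P4 in cKO and 0 to 1 for the difference in response. Over all genes the calls ran, across fits other than single omissions, from 1085 to 6500 for genotype after vehicle (3516 as reported), from 1864 to 7123 for genotype after P4 (2767), from 2022 to 6276 for P4 in f/f (3280), from 383 to 5965 for P4 in cKO (1238) and from 176 to 4122 for the difference in response (355).

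Of the member values in other fits, 538 stayed on their side of the threshold in the same direction, 19 passed it anew, 16 lost it and 37 changed sign while not called; with 1 library left out these numbers were 1136, 11, 22 and 31. Same-numbered libraries were not shown to deviate together (13 pairs, median r 0.0968, 6 above 0.1). For 227 pairs of other numbers the median r was -0.000897, with 84 above 0.1. The estimated correlation within the replicate block was 0.22. With the replicate block the counts were 4, 2, 4, 2 and 1 in the order above, and Igf1 was not called between genotypes after P4 (-0.51, adjusted p = 0.061; over all its fits the adjusted p went up to 0.138). The cause of these changes was not tested. The p-values rest on 4 libraries in each P4 group, and no counting interval is given because counts were not used here.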
